A study of Mus musculus with 8 samples.

Results

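The death receptors Fas, Tnfrsf10b and Tnfrsf1a and the related receptor Eda2r were examined in mouse embryonic stem (ES) cells treated with cisplatin. Examined with them were the adaptors Fadd, Tradd and Ripk1, the protease gene Casp8 and its regulator Cflar. The members are these 9 genes, and every probe set whose only annotated gene symbol was one of them was taken. This gave 15 probe sets for 8 of the 9 genes, out of 28898 probe sets for 17098 genes. No such probe set was found for Ripk1 in the platform annotation used here, so Ripk1 was not analysed here.

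All samples were HPRT deficient ES cells of the strain C57BL/6 at passages 19 to 22, moved from feeder-coated to gelatin-coated plates before the experiment. The 4 treated samples received 2.5 µM cisplatin, a platinum drug that crosslinks DNA, and the 4 controls received an equal volume of the solvent dimethyl sulfoxide (DMSO). RNA was taken at 8 h, and each sample was read on 1 array by 3′-primed amplification of polyadenylated RNA. The replicates are numbered 3 to 6 in both groups, and the labels do not tell whether separate cultures were used. The p-values therefore rest on the spread among these arrays and that spread may be only technical.

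Death receptors are surface proteins of the tumour necrosis factor (TNF) receptor superfamily. Fas, the TRAIL receptor encoded by Tnfrsf10b and the TNF receptor encoded by Tnfrsf1a carry a death domain inside the cell. Ligand binding draws in FADD, or TRADD and RIPK1, and FADD brings procaspase-8 molecules together so that they activate each other. Cflar encodes c-FLIP, a relative of caspase-8 without protease activity that competes for FADD and is made in long and short forms by alternative splicing. Eda2r encodes the receptor for the A2 form of ectodysplasin, which has no death domain and signals through TRAF proteins. Fas, Tnfrsf10b and Eda2r are known targets of the transcription factor p53, which DNA damage activates.

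Fas and Eda2r were the members that rose by their brightest probe set, and their promoters are shown because the data bear on both. The sequences, written 5′ to 3′ on the strand of the gene, hold the bases before the outermost annotated gene start. They were taken from RefSeq in the build GRCm38.p6 at chr19:34290409-34290646 (plus strand) for Fas and chrX:97377235-97377459 (minus strand) for Eda2r.
Fas: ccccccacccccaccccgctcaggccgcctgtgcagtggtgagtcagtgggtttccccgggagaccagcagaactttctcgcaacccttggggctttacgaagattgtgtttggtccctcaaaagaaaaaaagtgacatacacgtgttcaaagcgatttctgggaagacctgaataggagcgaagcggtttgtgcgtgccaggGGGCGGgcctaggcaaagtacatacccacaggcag
Eda2r: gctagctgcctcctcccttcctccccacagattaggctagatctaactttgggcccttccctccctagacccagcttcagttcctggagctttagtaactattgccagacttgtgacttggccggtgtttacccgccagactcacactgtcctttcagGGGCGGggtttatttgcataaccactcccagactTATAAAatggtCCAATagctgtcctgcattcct
Capitals mark matches, on either strand, to the GC box (GGGCGG), the CCAAT box (CCAAT) and the TATA box (TATAAA), and no match overlaps another. The Fas stretch held a GC box ending 29 bases before the gene start. In the Eda2r stretch a GC box ended 61 bases, a TATA box 27 bases and a CCAAT box 17 bases before the gene start. Over the 300-base windows of 32851 mouse promoters (250 bases before the start and 50 after), a GC box was present in 35.7%, a CCAAT box in 37.4% and a TATA box in 13.6%. A promoter window was found for 7 of the 9 members. The p53 half-site, searched on both strands, had no match in their 8 windows and was present in 8.36% of all windows; this says only that these letters are not in these windows.

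Values are log2 expression values, and changes are cisplatin minus control on the same scale. Over all genes the correlation between arrays was 0.997 to 0.998 within groups and 0.992 to 0.995 across them. As a check of the treatment, Mdm2 and Cdkn1a, known p53 targets, rose by 1.48 ± 0.12 (SE) and 1.22 ± 0.12 (limma, adjusted p = 4.79e-05 and 9.82e-05). At an adjusted p under 0.05, 1989 genes were higher and 1314 lower. The gene test used the deposited values without centring. As an alternative, each array was centred on the median of the brightest probe sets of all genes. This centring lowered every gene-level change by about 0.13 on the log2 scale and gave 1087 higher and 3925 lower genes. The median change of all genes was then -0.12. In the probe-set test this alternative used the median of all 28898 probe sets, and the shift was smaller, with Fas at 1.01 rather than 1.08. Of 7 ES cell markers, Esrrb, Zfp42, Utf1 and Nanog fell and none rose, beside 7.69% of all genes lower and 11.6% higher. The median change of the 7 was -0.22. After centring 6 were lower, beside 3925 of all 17098 genes. Nanog did not pass without cisplatin array 4 or 5, or control array 3 or 6 (limma, highest adjusted p = 0.0603). The log2 summed level of the 7 was 14.58 to 14.63 on the cisplatin arrays and 14.69 to 14.74 on the controls. Feeder fibroblast markers summed to 11.58 to 11.84 with cisplatin and 11.74 to 11.92 in the controls. Values were summed off the log scale, so the sum rests mostly on the brightest genes, Vim, Fn1 and Acta2. These had control means of 10.86, 10.20 and 8.43, and were named after their values were seen. How far the sum follows the number of feeder cells was not tested. Of the 19 feeder markers measured, Mmp2, Thy1 and Fbln2 were called higher and Fn1 lower, beside 11.6% and 7.69% of all genes. After centring 2 were higher and 2 lower, beside 1087 and 3925 of all 17098 genes. Below background on all arrays were 7 of the 19 (25.7% of all genes were), which were Col1a2, Col6a3, Dcn, Fap, Fbln2, Lum and Postn, while others such as Col1a1, Col5a2, Acta2 and Vim were above it; these were named after their values were seen. The call of Fbln2 was lost after centring (adjusted p = 0.351) and when cisplatin array 5 or 6, or control array 3, 4 or 5, was left out (highest adjusted p = 0.0728). Thy1 did not pass without control array 3 (adjusted p = 0.0519), after a further quantile normalization (0.0524) or by an ordinary t statistic (0.0773). Among 9 markers of early differentiated cells, Pax6 fell and the other 8 did not pass the test. Of all genes, 7.69% were lower and 11.6% higher. After centring 0 of the 9 were higher and 4 lower, beside 1087 and 3925 of all 17098 genes. The summed levels of the 9 were 9.70 to 10.05 with cisplatin and 9.41 to 9.94 in the controls.

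Most members lay close to the array background, and so did the medians of all values on each array, at 3.35 to 3.38. Background was read from the probes with 24 G or C among 25 bases that match no transcript, with a mean of 3.10; the probes made only of G and C lay higher, at 4.89. Of the 15 member probe sets, 2 were below 3.10 on all arrays and only that of Eda2r was above 4.89 on all arrays. Among the 28898 probe sets, 28.8% were below 3.10 on all arrays.

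By the brightest probe set of each gene, Fas and Eda2r rose, Cflar fell, and Tnfrsf10b, Tnfrsf1a, Fadd, Tradd and Casp8 did not pass the test. The 3 genes called compare with 19.3% of all 17098 genes called in either direction, where 11.6% were higher and 7.69% lower. The groups did not overlap for these 3 genes, as for 24.3% of all genes. The median change of the 8 genes was 0.15 and that of all genes 0.01. At the level of single probe sets, 4 of the 15 were higher and 1 lower, where 16.3% of all probe sets were called in either direction, 8.60% higher and 7.69% lower.

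**Figure D1:**
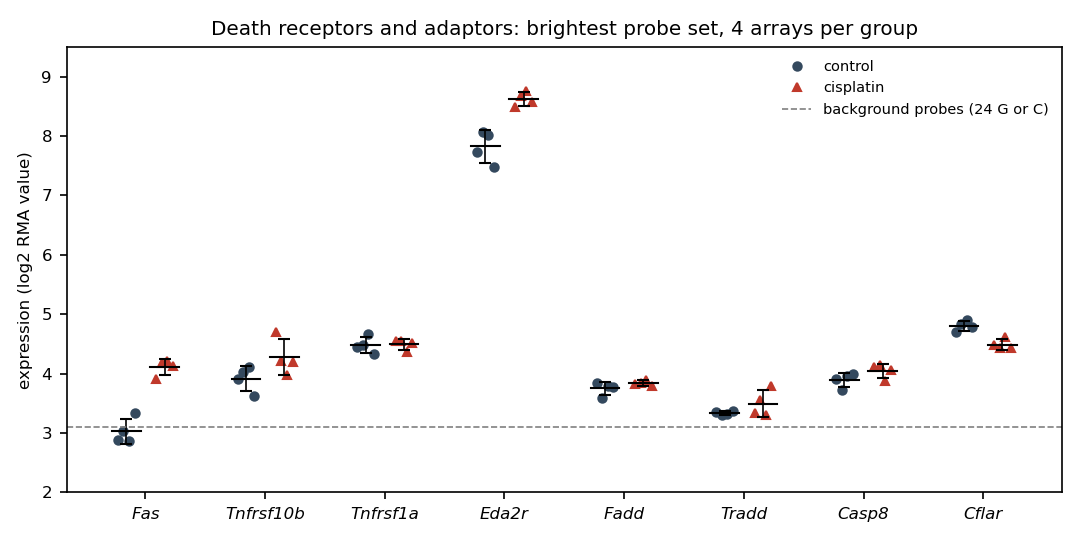
Log2 expression value (vertical axis) of the brightest probe set of each of the 8 measured genes on every array, controls as circles and cisplatin as triangles; bars give the mean and SD of 4 arrays, and the dashed line is the background at 3.10. The groups are apart for Fas, Eda2r and Cflar and overlap for the other 5 genes.

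Fas, the receptor for Fas ligand, had values of 3.91, 4.18, 4.21 and 4.12 on cisplatin arrays 3 to 6 and of 2.89, 3.03, 2.87 and 3.33 on control arrays 3 to 6. Every cisplatin array was above every control array, and 3 of the 4 control arrays were below background. The mean of the treated arrays was 4.11 ± 0.14 (SD, n = 4) and that of the controls 3.03 ± 0.21. Fas thus rose by 1.08 ± 0.11 (SE), or 2.11-fold, with a 95% confidence interval from 0.84 to 1.32 (limma, adjusted p = 0.000137). With arrays below background set to the background of that array, the difference was 0.96, and after centring 0.95, both under 2-fold. As deposited, Fas was among the 0.877% of genes that rose at least 2-fold, which does not hold under either setting. In bulk RNA, a change in the number of cells with a transcript and a change in its amount per cell cannot be told apart.

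Eda2r was the brightest member. Its values were 8.49, 8.68, 8.75 and 8.58 on cisplatin arrays 3 to 6 and 7.74, 8.07, 8.02 and 7.48 on control arrays 3 to 6. The groups did not overlap, and control replicate 6 was the lowest array. The mean moved from 7.83 ± 0.28 (SD, n = 4) in the controls to 8.63 ± 0.11 with cisplatin. Eda2r rose by 0.80 ± 0.12 (SE), or 1.74-fold, with a 95% interval from 0.52 to 1.08 (limma, adjusted p = 0.00162), which gave it rank 271 by change. Fas and Eda2r passed the test under every one of the 19 alternatives run for the gene test, with changes of 0.95 to 1.18 and of 0.67 to 0.88. Both genes had 1 probe set, so the alternatives in the choice of probe set could not change their values.

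Tnfrsf10b, the mouse death receptor for TRAIL, was read by 2 probe sets. The brighter one, 1422344_PM_s_at, whose suffix marks probes shared by several transcripts, was at 4.70, 4.21, 3.98 and 4.20 on cisplatin arrays 3 to 6 and at 3.91, 4.03, 4.11 and 3.62 on control arrays 3 to 6. Of the cisplatin arrays, 3 were above all controls, and replicate 5 was below control replicate 5. The difference was 0.36 ± 0.15 (SE), with a 95% interval from 0.02 to 0.69 before adjustment, and did not pass the test (limma, adjusted p = 0.143). It passed under none of the 19 alternatives (lowest adjusted p = 0.0777). The second probe set, 1421296_PM_at, stayed within 2.90 and 3.32 on all arrays, near background, with a difference of 0.04 ± 0.09. Whether the probe sets of Tnfrsf10b differ in their change was tested with limma on the difference between them, at -0.32 ± 0.15 (adjusted p = 0.302).

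Tnfrsf1a, the receptor that starts both the NF-κB and the death response to TNF, ranged from 4.36 to 4.55 with cisplatin and from 4.33 to 4.66 in the controls. The groups overlapped fully, and the difference was 0.01 ± 0.08 (SE) with a 95% interval from -0.16 to 0.18 (limma, adjusted p = 0.949). Among the 4 receptors, the changes of Fas and Eda2r passed the test and those of Tnfrsf10b and Tnfrsf1a did not; differences in change between receptor genes were not tested.

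The adaptors were dim and their groups overlapped. Fadd, which joins the receptor to caspase-8, was at 3.83, 3.85, 3.90 and 3.79 on cisplatin arrays 3 to 6 and at 3.85, 3.59, 3.79 and 3.78 on control arrays 3 to 6. The difference of 0.09 ± 0.06 (SE) had a 95% interval from -0.05 to 0.23 (limma, adjusted p = 0.397). Its other probe set, 1446499_PM_at, was below background on 7 of 8 arrays, all but control replicate 6.

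Tradd, the adaptor of the TNF receptor, was at 3.33, 3.56, 3.30 and 3.79 on cisplatin arrays 3 to 6, while the 4 controls lay between 3.31 and 3.38. Cisplatin replicates 4 and 6 were above the controls and the other two within or just under their range. The difference was 0.15 ± 0.10 (SE), with a 95% interval from -0.07 to 0.38 (limma, adjusted p = 0.350). The second probe set of Tradd was below background on all arrays.

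Casp8, the initiator protease of the pathway, was at 4.12, 4.15, 3.88 and 4.06 on cisplatin arrays 3 to 6 and at 3.91, 3.72, 3.96 and 3.99 on control arrays 3 to 6. Of the cisplatin arrays, 3 were above all controls, and replicate 5 fell within them. The difference of 0.16 ± 0.08 (SE) had a 95% interval from -0.02 to 0.33 and did not pass the test (limma, adjusted p = 0.226).

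**Figure D2:**
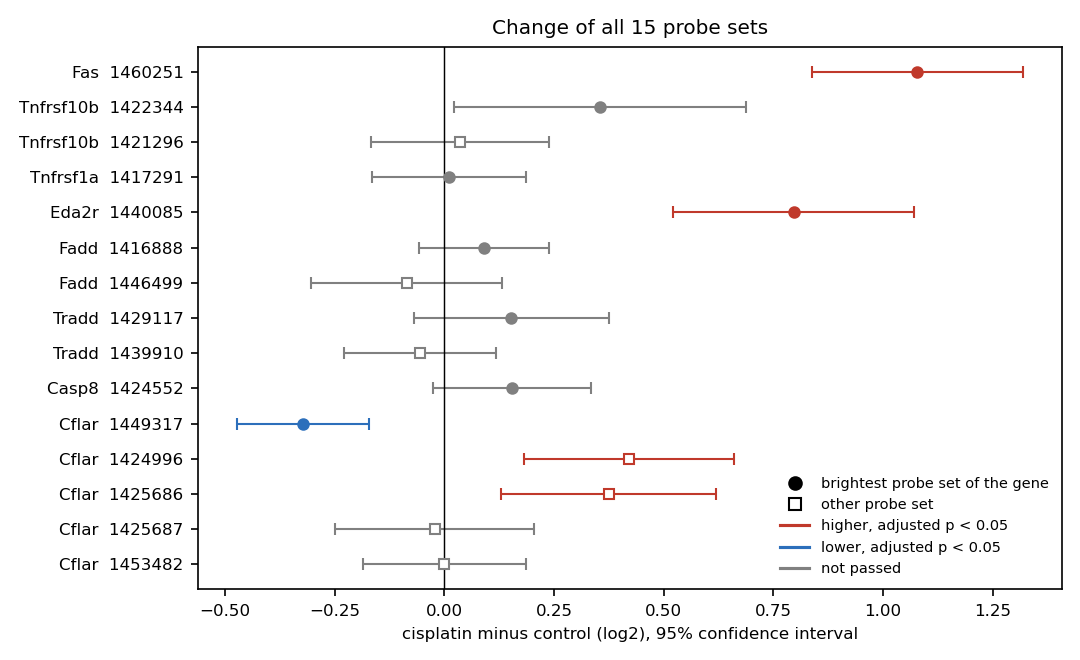
Change of each of the 15 probe sets (horizontal axis, cisplatin minus control, log2) with its 95% confidence interval from the probe-set test; filled circles are the brightest probe set of a gene, open squares the others. The probe sets of Fas, Eda2r and 2 of Cflar are higher, 1 of Cflar is lower, and the other 10 did not pass.

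Cflar went in opposite directions by different probe sets. RefSeq lists 6 curated mRNA transcripts for Cflar, more than for any other member, and 5 probe sets read the gene. Which transcript each probe set reads was not tested. Their p-values below are adjusted over all 28898 probe sets.

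The brightest, 1449317_PM_at, was at 4.49, 4.43, 4.61 and 4.42 on cisplatin arrays 3 to 6 and at 4.71, 4.83, 4.91 and 4.79 on control arrays 3 to 6. Every cisplatin array was below every control array. The difference was -0.32 ± 0.07 (SE), or 1.25-fold lower (limma, adjusted p = 0.00836, and 0.00657 over genes).

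By contrast, 1424996_PM_at was at 4.08, 4.12, 4.04 and 4.18 with cisplatin and at 3.92, 3.76, 3.73 and 3.34 in the controls, in the same order of arrays. Every cisplatin array was above every control array, and control replicate 6 was the lowest. This probe set rose by 0.42 ± 0.11 (SE), or 1.34-fold (limma, adjusted p = 0.0234). Its call was lost without cisplatin replicate 4 or 6 (adjusted p = 0.0553 and 0.0617). An ordinary t statistic ended it too (adjusted p = 0.0887).

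The probe set 1425686_PM_at moved the same way, from 3.72, 3.73, 3.66 and 3.46 on control arrays 3 to 6 to 3.87, 4.15, 4.27 and 3.78 with cisplatin. The groups did not overlap, though cisplatin replicate 6 and control replicate 4 were only slightly apart. The change was 0.37 ± 0.11 (SE), or 1.30-fold (limma, adjusted p = 0.0437). This call was lost without cisplatin replicate 4 or 5, without any one control array (highest adjusted p = 0.112), after centring (adjusted p = 0.0712) and after a further quantile normalization (adjusted p = 0.0703). The ordinary t statistic gave an adjusted p of 0.130.

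The remaining 2 probe sets were at or below background. The values of 1425687_PM_at, which was designed from the same expressed sequence as 1425686_PM_at, ran from 2.67 to 3.13, with a difference of -0.02 ± 0.10. For 1453482_PM_at they ran from 2.48 to 2.77, with a difference of 0.00 ± 0.08.

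The disagreement itself was tested on the difference between probe sets on each array. The value of 1424996_PM_at minus that of 1449317_PM_at went from -1.12 ± 0.27 (SD, n = 4) in the controls to -0.38 ± 0.14 with cisplatin, a shift of 0.74 with groups that did not overlap. For 1425686_PM_at minus 1449317_PM_at it went from -1.17 ± 0.16 to -0.47 ± 0.19, a shift of 0.70. Each reached the smallest p of a two-sided exact permutation test over the 70 assignments of the arrays (p = 0.0286, adjusted p = 0.0857 over 12 pairs of probe sets). None of the 12 pairs passed after adjustment, which would have required 7 pairs at that smallest p; 4 had an unadjusted p of 0.0286. With limma over all 11800 such pairs of the array, a test chosen after seeing the data, both passed, at 0.74 ± 0.13 and 0.70 ± 0.11 (SE; adjusted p = 0.0134 and 0.00810), as did 4.69% of all pairs. Of the 7179 genes with more than 1 probe set, 11 (0.153%) had probe sets that passed in opposite directions, and Cflar was one of them.

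**Figure D3:**
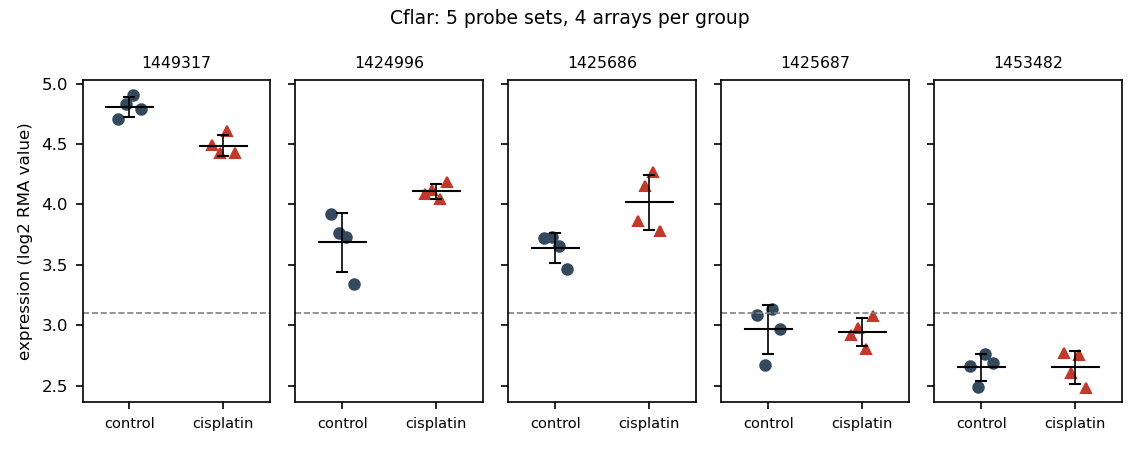
Log2 expression value (vertical axis) of the 5 Cflar probe sets on every array, controls as circles and cisplatin as triangles, with mean and SD of 4 arrays and the background at 3.10 as a dashed line. The cisplatin arrays lie below the controls for 1449317, above them for 1424996 and 1425686, and among them for the 2 dim probe sets.

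Because caspase-8 and c-FLIP act at the same complex, the change of Casp8 relative to each Cflar probe set was also compared. Against 1449317_PM_at, the per-array log2 difference of Casp8 minus Cflar moved from -0.91 ± 0.15 (SD, n = 4) in the controls to -0.44 ± 0.20 with cisplatin, a shift of 0.48 without overlap (two-sided exact permutation test, p = 0.0286, adjusted p = 0.0857). Against 1424996_PM_at and 1425686_PM_at the shift was -0.27 and -0.22, and the groups overlapped (exact p = 0.171 and 0.371, adjusted p = 0.257 and 0.405). The first of these was -0.12 without control replicate 6, and the second was -0.08 without cisplatin replicate 5 and -0.13 without control replicate 6. Against the dim probe sets 1425687_PM_at and 1453482_PM_at the shifts were 0.18 and 0.15 (exact p = 0.114 and 0.229, adjusted p = 0.229 and 0.274). No shift of Casp8 relative to Cflar passed after adjustment.

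The rest of the pathway was described by 4 lists, in which a few genes rose and most did not pass the test. Of 17 ligands and other receptors measured, 1 was higher and 1 lower, beside 11.6% and 7.69% of all genes, with a median change of 0.01. After centring 1 was higher and 3 were lower, beside 1087 and 3925 of all 17098 genes. Tnfrsf12a, the receptor for the ligand TWEAK, rose from 7.01 ± 0.04 (SD, n = 4) to 7.53 ± 0.17, a change of 0.51 ± 0.08 (SE; limma, adjusted p = 0.00169). Eda, which encodes ectodysplasin, a form of which is the ligand of Eda2r, changed by -0.37 ± 0.11 (adjusted p = 0.0324) from 3.94 ± 0.18, with overlapping groups. Eda no longer passed when cisplatin array 5 or 6, or control array 3, 5 or 6, was left out (highest adjusted p = 0.0794). Fasl, Tnfsf10 and Tnf, the ligands of Fas, of Tnfrsf10b and of Tnfrsf1a, were below background on all arrays; they were singled out after their values were seen.

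Of 33 genes of proximal signalling, 5 were called higher and none lower, beside 11.6% and 7.69% of all genes, and the median change was 0.02. After centring 2 were higher and 5 lower, beside 1087 and 3925 of all 17098 genes. With the mean of all probe sets of a gene 5 were higher and 2 lower. The necroptosis kinase gene Ripk3 rose by 0.53 ± 0.07 (SE), from 5.64 ± 0.03 (SD, n = 4) to 6.17 ± 0.15 (limma, adjusted p = 0.000929). Rbck1, a subunit gene of the linear ubiquitin ligase, rose by 0.48 ± 0.07 (adjusted p = 0.000907). Bag4, a silencer of death domains, rose by 0.26 ± 0.06, and the TRAF family gene Traf4 by 0.29 ± 0.08. The fifth gene, named after its values were seen, was Mlkl, the membrane-disrupting effector of RIPK3, at 0.28 ± 0.08 (adjusted p = 0.0389) and near background at 2.86 ± 0.12 in the controls.

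Downstream of the caspase, 3 of 6 genes were called higher and none lower, beside 11.6% and 7.69% of all genes, and the median change was 0.26. After centring 1 was higher, beside 1087 of all 17098 genes, with a median of 0.13 beside -0.12 for all genes. With the mean of all probe sets 2 were higher, with a median of 0.14. Dffb, which encodes the caspase-activated DNase, rose from 4.14 ± 0.23 (SD, n = 4) to 5.39 ± 0.24, a change of 1.25 ± 0.14 (SE; limma, adjusted p = 0.000212). Bid, the BCL-2 family member that caspase-8 cleaves to reach the mitochondrion, rose by 0.30 ± 0.06, and the effector caspase gene Casp6 by 0.30 ± 0.08 (adjusted p = 0.00465 and 0.0321). The groups overlapped for Casp6.

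Of 19 NF-κB target genes, which TNF receptor signalling switches on, 2 were higher and 1 lower, shares close to the 11.6% and 7.69% of all genes, and the median was 0.03. After centring 1 was higher and 3 were lower, beside 1087 and 3925 of all 17098 genes. Nfkbia, the inhibitor that restrains NF-κB, rose by 0.57 ± 0.07 (SE; limma, adjusted p = 0.000421), and the chemokine gene Cxcl10 by 0.57 ± 0.17 (adjusted p = 0.0465) with overlapping groups. The control mean of Cxcl10 was 2.92, under the background of 3.10, with control arrays from 2.54 to 3.28. Bcl3, a nuclear partner of NF-κB, fell by 0.65 ± 0.13 on the log2 scale (adjusted p = 0.00615).

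Some of these genes passed narrowly. Centring ended the calls of Bid, Casp6, Bag4, Traf4, Mlkl and Cxcl10 (adjusted p = 0.0822, 0.170, 0.128, 0.123, 0.168 and 0.0704). It moved the medians of the lists of ligands, proximal signalling and NF-κB targets to -0.12, -0.11 and -0.11. The median of all genes moved to -0.12 under the same setting. Taking the mean of all probe sets of a gene ended the calls of Bid, Casp6 and Eda (adjusted p = 0.0665, 0.390 and 0.145), and the most variable probe set that of Bid (0.0797). An ordinary t statistic ended those of Eda, Traf4, Mlkl, Casp6 and Cxcl10 (0.0972, 0.0635, 0.0894, 0.0795 and 0.141). Casp6 and Cxcl10 also did not pass after a further quantile normalization (adjusted p = 0.114 and 0.0721). Single arrays mattered as well. Casp6 no longer passed when cisplatin array 3, 4 or 5, or control array 3 or 5, was left out (highest adjusted p = 0.0893), and Traf4 when cisplatin array 4 or 5, or control array 3, 5 or 6, was (0.0652). Of the 8 fits without 1 array, Mlkl passed only when that array was cisplatin replicate 3 or control replicate 6 (highest adjusted p = 0.104). Cxcl10 no longer passed when cisplatin array 3, 5 or 6, or control array 4 or 6, was left out (highest adjusted p = 0.121).

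**Figure D4:**
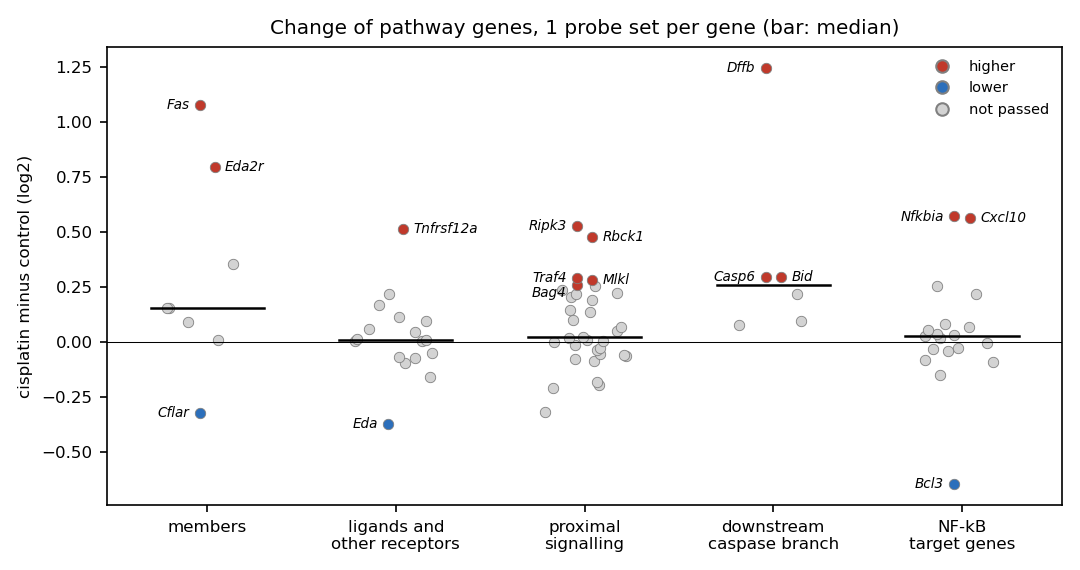
Change with cisplatin (vertical axis, log2) of each measured member and of each gene of the 4 pathway lists, by its brightest probe set; coloured points passed the test and are named, and the black bar is the median of the list. Most genes lie near 0, while Dffb at 1.25 and Fas at 1.08 stand highest and Bcl3 at -0.65 lowest.

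The genes with a profile most like each receptor were found by the root mean square difference over the 8 arrays, each gene taken relative to its control mean. Nearest to Fas were Smtnl1, Obsl1 and Nipal4, at 0.10, 0.12 and 0.12 on the log2 scale. Nearest to Eda2r were Terf2, Gnat2 and Plxnb2, at 0.06, 0.07 and 0.07, with changes of 0.78, 0.74 and 0.76 beside 0.80 for Eda2r. For Tnfrsf10b they were Fam184b, Gm11110 and Ano9 (0.10, 0.13 and 0.14), and for Tnfrsf1a B3gnt8, Kif2b and Olfr17 (0.04, 0.04 and 0.05). The control means of B3gnt8, Kif2b and Olfr17 were 2.70, 2.41 and 2.56, and that of Nipal4 was 2.99. All of these were under the background of 3.10, and the control means of the other nearest genes were above it. The distances are descriptions of 2 groups of 4 arrays, and a small distance includes the size of the treatment change.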

How the data were processed

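The deposited values of the 8 arrays are on the log2 scale. The submitters' processing notes name RMA, which corrects background, normalizes between arrays and summarises each probe set, and limma, with no versions. Such values near background understate changes, and arrays give no counts, so their number, 4 per group, limits the precision. Probe sets were joined to the platform annotation: 28898 had 1 gene, 551 several and 15588 none listed. Symbols were updated through a RefSeq table, which held 16937 of 17098 genes. Each gene was represented by its brightest probe set, by the mean over all arrays. Treated and control arrays were tested with limma 3.58.1 in R 4.3.3 (group as the only term, Benjamini-Hochberg over all genes or all probe sets, threshold 0.05, no filter), tested on simulated data. Confidence intervals are unadjusted. Pairs of probe sets were tested by exact permutation (two-sided), and by limma over all pairs as an alternative added after seeing the data.

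Named were all members, the 4 called genes with the smallest p of each list, Mdm2 and Cdkn1a, and the 3 genes nearest to each receptor. The members and lists were chosen with earlier results of these data known. Alternatives covered normalization, centring, dim genes, the variance model, the threshold, the choice of probe set, the replicate block and leaving out each array. Figures were drawn with matplotlib 3.10.9.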

Additional observations from a re-analysis of the deposited data

How the results depend on the processing

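The calls of Fas and Eda2r kept their direction and stayed past the threshold under all 19 alternatives of the gene test and all 16 of the probe-set test. With 1 probe set each, their values could not depend on the choice of probe set. Cflar was lower by its brightest probe set but at 0.42 (adjusted p = 0.0227) with the most variable probe set and at 0.0903 (adjusted p = 0.341) with the mean of the probe sets, so that members called lower went from 1 to 0 under both. Members called higher by probe set went from 4 to 2 with an ordinary t statistic and at a threshold of 0.01, and to 2 to 4 with 1 array left out. Over all genes, 1989 higher and 1314 lower calls became 1087 and 3925 after centring, and 1113 and 742 at the threshold of 0.01. Over all probe sets, 2486 and 2222 became 1353 and 1195 at 0.01, and 3753 were lower after centring.

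The numbers 3 to 6 do not settle a pairing: deviations of same-numbered arrays correlated over genes at 0.0649 to 0.200, and 7 of 8 arrays were closest to their own number. With the replicate number as a block, 2111 genes were higher and 1336 lower, 2 members were higher and 1 lower, and Eda lost its call (adjusted p = 0.0872). The block also moved proximal signalling from 5 higher and 0 lower to 6 and 2, where Ikbkg was higher and Otulin and Cradd lower, and early differentiated markers from 0 higher to 3. For pairs of member probe sets no block was fitted. Instead the signs of the differences between same-numbered arrays were flipped in all 16 ways. This sign-flip test gave 0 passing pairs, as did the permutation test, and no pair could have passed it, since its smallest p is 0.125. Below background on all arrays were 2 of the 15 member probe sets, beside 28.8% of all probe sets, and none of the 8 brightest ones.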
